A study of Mus musculus with 2 samples.

Results

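The genes described here are 10 genes of cytotoxic lymphocytes, taken by name as rows of a single-cell transcriptome matrix of 31192 genes: the granule effectors Gzma, Gzmb, Prf1 and Nkg7, the lectin-like receptors Klrb1c, Klre1, Klrk1 and Klra8, the cytokine receptor chain Il2rb and the transcription factor Eomes. All 10 were found in the matrix. The cells came from hearts of mice that had undergone transverse aortic constriction (TAC), an operation that narrows the aorta and overloads the left ventricle. All animals carried Cdh5-CreERT2, in which the driver of the endothelial gene Cdh5 makes a tamoxifen-inducible Cre recombinase, together with REFLEX, a reporter system in which GFP labels interacting cells, and all were given tamoxifen. Cells that were CD45-negative or CD45-positive, each with and without GFP, were sorted and pooled into 1 transcriptome library. No unoperated heart and no replicate was analysed here, and the sources used here do not tie a cell to its sorted fraction, so the comparisons below are between classes of cells within that library. The number of animals, their age and the time after the operation are not given in the sources used here.

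Natural killer (NK) cells and cytotoxic T cells kill target cells by releasing granules that hold perforin, which opens the target's membrane, and granzymes, proteases that enter and start cell death. NK cells read their targets with germline-encoded activating and inhibitory receptors, many of them from the lectin-like families of the NK gene complex, whereas T cells use a rearranged antigen receptor. Interleukin-15, received through the beta chain encoded by Il2rb, maintains both kinds of cell, and the T-box factors Eomes and Tbx21 drive genes of the killing programme.

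Of 878 deposited cells, 857 were kept, with 28406.6 to 706332 estimated counts per cell over all deposited cells and a median of 77171. Classes were built from clusters and named with markers that include none of the 10 genes, and the 10 genes did not enter the clustering. NK cell-like cells numbered 27 (3.15% of kept cells, 2.09 to 4.55), Cd8a-positive T cells 36, other T cells 67 and other leukocytes 727, among them an unnamed cluster of 33. No cluster passed for endothelial cells, fibroblasts or cardiomyocytes, although CD45-negative fractions were sorted, and the endothelial marker list summed to a counts-per-million value (CPM) of 23.4 or less in every class. All intervals given are exact at the 95% level and hold only the error of counting, since cells of 1 library are not replicates and no p-value can be given. The median depth was 71690 counts in NK cell-like cells, 102518 in Cd8a-positive T cells, 85704 in other T cells and 76157 in other leukocytes. Cell names carry the authors' tag calls, and of the 27 NK cell-like cells 16 were named A965, 6 A953, 3 A951, 1 A952 and 1 doublet.

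The markers behind the NK label come first. Ncr1, which encodes the activating receptor NKp46 and is a marker of NK cells, was above 0 in 20 of 27 NK cell-like cells and in 1 of 36 Cd8a-positive T cells. 10 of the 11 NK markers, Ncr1 among them, passed in that cluster, where passing meant a level of 50 CPM or more and 2 times that of all other cells or more. These markers gave the cluster its name, so their levels describe the label and are no independent check of it. Of the chains of the T cell receptor complex, Cd3g had no count in NK cell-like cells, Cd3e had 1 count and Cd3d had 28 counts, while Trac had 48 counts, 45 of them in a single cell. Of the 9 T cell markers 3 also passed there (Trbc1, Trbc2 and Cd28), and the list summed to 1585 CPM in NK cell-like cells, 908 CPM of it Trbc1, against 5978 CPM in Cd8a-positive T cells and 6611 CPM in other T cells, and the part of this in the results was not tested. Trdc, the delta-chain constant gene, was above 0 in 8 of 27 NK cell-like cells. Leukocyte antigen Ptprc (CD45) was above 0 in all 27. The monocyte marker list summed to 1079 CPM in NK cell-like cells and 998 CPM in Cd8a-positive T cells against 198 CPM in other T cells, with Ly6c2 its highest member in the first pair at 786 and 723 CPM, and the part of this in the results was not tested. Of the conventional dendritic list, 2 of 6 measured genes were at 0 in NK cell-like cells and the list summed to 11.1 CPM.

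All 10 genes were at their highest level in NK cell-like cells. Levels are summed counts of a class scaled to CPM, and a gene was counted as higher when the log2 ratio of 2 levels, with 1 CPM added to each, was at least 1. Against all other cells, 10 of 10 were higher in NK cell-like cells, at a median of 7.20 on the log2 scale, and 16.1% of the 18243 genes with at least 50 counts were called higher in this comparison, whose median over all genes was -0.26. Against Cd8a-positive T cells alone, 10 of 10 were again higher, at a median of 3.99, where 19.4% of tested genes were higher and 19.6% lower. When NK cell-like cells were drawn cell by cell from markers instead, 20 of the 27 and 11 other leukocytes were taken, all 10 genes were still higher there than in all other cells, and the log2 ratio of Gzma was 5.29 in place of 8.95. Every one of the 27 cells carried at least 7 of the 10 genes at 3 or more counts, with a median of 9. Cd8a-positive T cells carried 0 to 8 with a median of 1, and other T cells 0 to 6 with a median of 0. Among 727 other leukocytes, 683 carried none of the 10 genes at 3 counts and no cell carried more than 2.

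**Figure D1:**
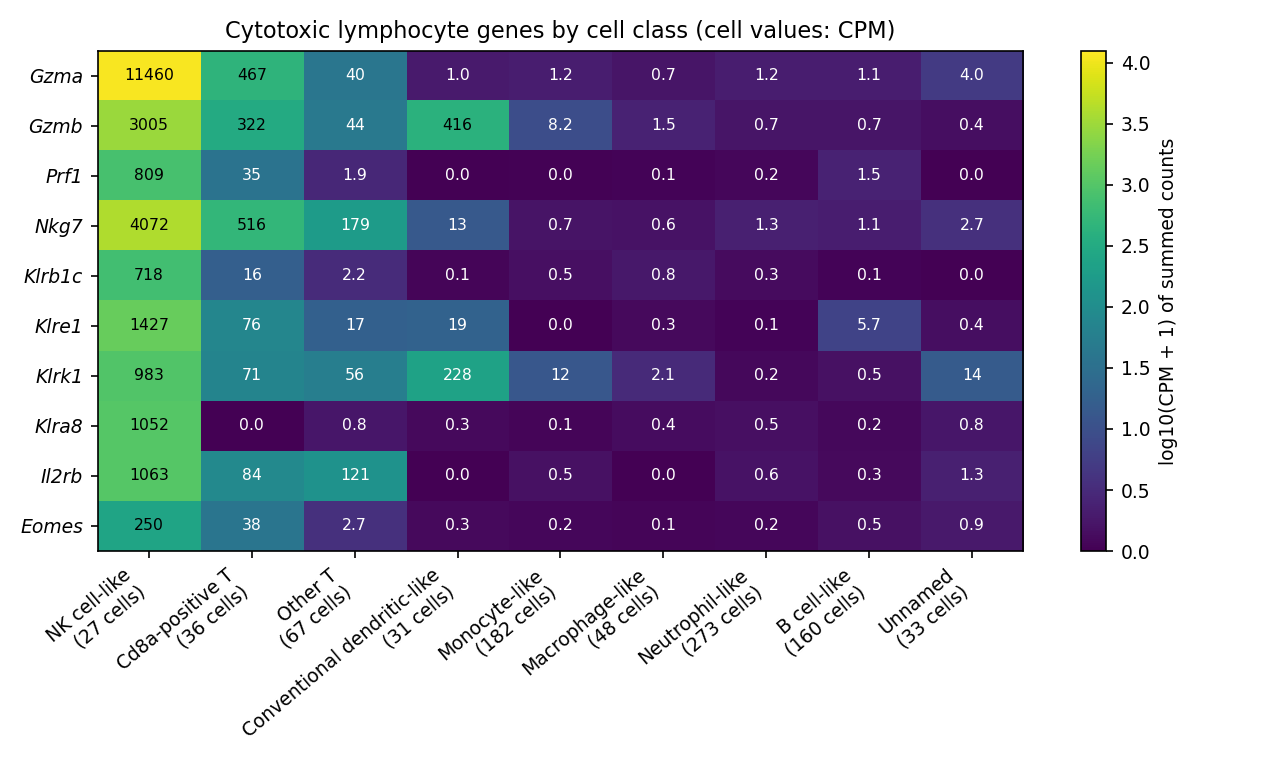
Level of each gene in each class, as CPM of the summed counts (number in each field) and as log10(CPM + 1) (colour). The NK cell-like column holds the highest value in all 10 rows, from 250 CPM for Eomes to 11460 CPM for Gzma, and among the non-lymphocyte columns only Gzmb and Klrk1 in conventional dendritic-like cells exceed 100 CPM, at 416 and 228 CPM.

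The granule effectors come first. Gzma encodes granzyme A, a tryptase, and had 162 to 1806 counts per NK cell-like cell with a median of 796. In Cd8a-positive T cells its counts ran from 0 to 1132 with a median of 0, and 8 of 36 cells were above 0. In other T cells 8 of 67 cells were above 0 and the highest had 226 counts. No NK cell-like cell was at 0, and only 1 T cell, a Cd8a-positive one, was above the NK median. The level was 11460 CPM (11311 to 11611) in NK cell-like cells and 22.1 CPM in all other cells together, a ratio of 518 (495 to 541).

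Gzmb encodes granzyme B, which activates caspases. Counts per cell ran from 0 to 936 with a median of 177 in NK cell-like cells, of which 26 of 27 were above 0, and from 0 to 328 in Cd8a-positive T cells, of which 8 of 36 were. The level was 3005 CPM in NK cell-like cells, 322 CPM in Cd8a-positive T cells and 44.0 CPM in other T cells. The ratio to all other cells was 53.1 (51.2 to 55.1), and the level of the other cells rests largely on 1 cell described further on.

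Prf1 encodes perforin, and its counts ran from 0 to 175 per NK cell-like cell with a median of 46. It was above 0 in 25 of 27 NK cell-like cells, 10 of 36 Cd8a-positive T cells, 4 of 67 other T cells and 8 of 727 other leukocytes. Its level was 809 CPM in NK cell-like cells, 35.5 CPM in Cd8a-positive T cells and 1.90 CPM in other T cells, so that 90.1% of all its counts lay in the 27 NK cell-like cells. Gzma, Gzmb and Prf1 were together at 3 or more counts in 24 of 27 NK cell-like cells, in 1 of 36 Cd8a-positive T cells and in no other T cell.

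Nkg7, a membrane protein of cytotoxic granules that takes part in their release, was the effector with the widest spread over T cells. It was above 0 in 27 of 27 NK cell-like cells, 21 of 36 Cd8a-positive T cells and 15 of 67 other T cells. Counts per cell ran from 12 to 599 with a median of 274 in NK cell-like cells and from 0 to 451 with a median of 11.5 in Cd8a-positive T cells. The level was 4072 CPM in NK cell-like cells, 516 CPM in Cd8a-positive T cells and 179 CPM in other T cells. Of the summed counts of the 10 genes, Nkg7 made up 16.4% in NK cell-like cells, 31.7% in Cd8a-positive T cells and 38.5% in other T cells.

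The promoters of these 4 effectors are printed because the genes were high together in the same 27 cells, in which the T-box factors Eomes and Tbx21 were also at their highest. The sequences are from RefSeq, build GRCm38.p6, and run 5′ to 3′ on the strand of the gene, from 250 bases before to 50 bases after its start. The window of Gzma lies at chr13:113100932-113101231 on the minus strand, Prf1 at chr10:61297586-61297885 on the plus strand, Nkg7 at chr7:43436888-43437187 on the plus strand and Gzmb at chr14:56262285-56262584 on the minus strand. Capitals mark AGGTGT, the core of the T-box binding motif, or ACACCT, the same letters on the other strand.
Gzma: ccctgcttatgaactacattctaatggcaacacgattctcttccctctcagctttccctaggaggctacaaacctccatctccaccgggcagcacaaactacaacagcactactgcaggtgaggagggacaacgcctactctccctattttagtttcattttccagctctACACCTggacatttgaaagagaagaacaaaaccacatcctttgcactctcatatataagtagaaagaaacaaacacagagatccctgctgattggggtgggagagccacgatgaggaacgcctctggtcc
Prf1: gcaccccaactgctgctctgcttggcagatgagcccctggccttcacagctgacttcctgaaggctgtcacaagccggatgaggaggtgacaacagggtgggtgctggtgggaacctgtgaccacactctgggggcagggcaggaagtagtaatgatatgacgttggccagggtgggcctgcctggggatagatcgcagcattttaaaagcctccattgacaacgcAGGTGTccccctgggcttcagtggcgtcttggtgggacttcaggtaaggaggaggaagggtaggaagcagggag
Nkg7: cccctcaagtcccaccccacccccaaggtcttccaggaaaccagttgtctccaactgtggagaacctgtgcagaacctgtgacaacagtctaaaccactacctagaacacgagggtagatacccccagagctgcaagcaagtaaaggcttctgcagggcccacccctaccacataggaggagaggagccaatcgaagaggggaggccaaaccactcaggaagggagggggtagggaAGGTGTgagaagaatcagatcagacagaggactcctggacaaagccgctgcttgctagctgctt
Gzmb: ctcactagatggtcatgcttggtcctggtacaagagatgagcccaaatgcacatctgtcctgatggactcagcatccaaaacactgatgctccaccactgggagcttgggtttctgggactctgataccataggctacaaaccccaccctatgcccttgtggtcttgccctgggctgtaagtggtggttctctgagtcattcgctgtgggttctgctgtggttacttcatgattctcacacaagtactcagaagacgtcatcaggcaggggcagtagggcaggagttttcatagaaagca

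The core was found 80 bases before the start of Gzma as ACACCT, 24 before that of Prf1 and 14 before that of Nkg7 as AGGTGT, counted to its first base. It was not among the letters of the Gzmb window. Promoters of 9 of the 10 genes matched the table (Il2rb had no entry), and 3 of these 9 genes held the core, while 15.7% of 27025 genes with a promoter in the table did. A match describes letters and is not a bound site.

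**Figure D2:**
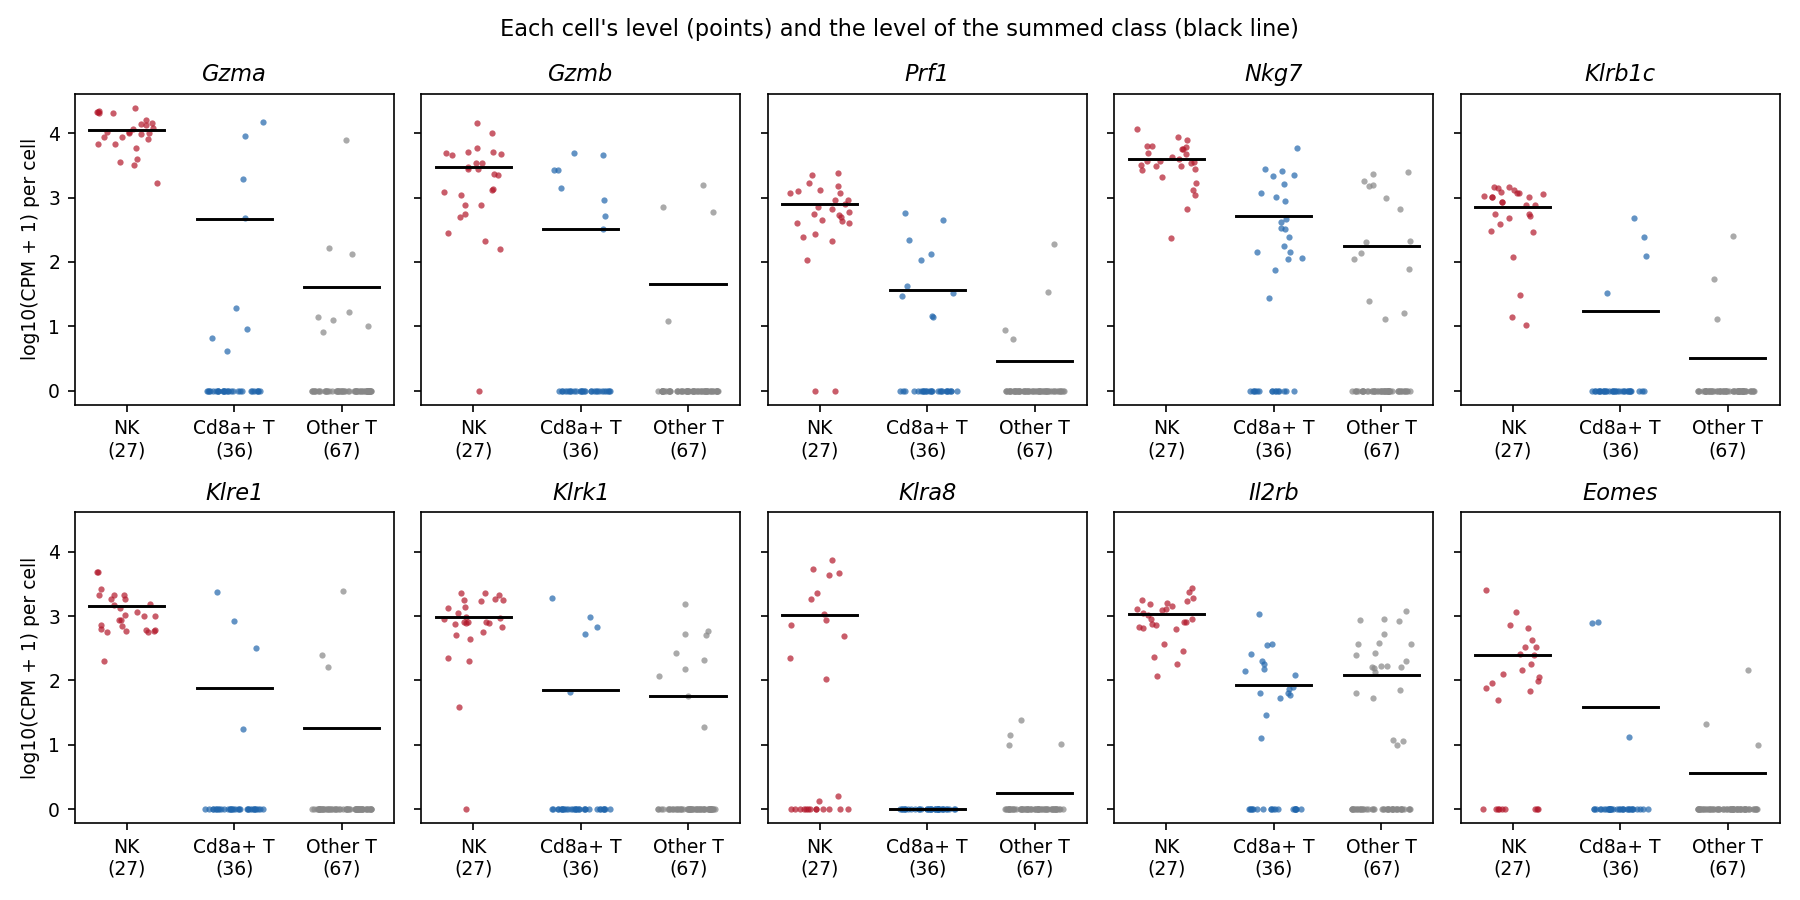
Level of each gene in each cell as log10(CPM + 1) (points, spread sideways for view) in 27 NK cell-like cells, 36 Cd8a-positive T cells and 67 other T cells, with the level of the summed class as a black line. Gzma, Nkg7, Klrb1c, Klre1 and Il2rb are above 0 in all 27 NK cell-like cells, while most T cells lie at 0 for every gene except Nkg7 in Cd8a-positive T cells.

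The lectin-like receptor genes all lie on chromosome 6. Klrb1c, the NK1.1 antigen by which NK cells of some mouse strains are stained, was above 0 in 27 of 27 NK cell-like cells, 4 of 36 Cd8a-positive T cells and 3 of 67 other T cells. Its counts ran from 1 to 120 per NK cell-like cell with a median of 46.9. The level was 718 CPM (681 to 756) in NK cell-like cells and 16.1 CPM in Cd8a-positive T cells. Of the cells with a Klrb1c value, 81.0% held one that was not whole, and 17.0% of the 50-base words of its annotated transcripts were shared with other genes, most often Gm44511, so its level is uncertain to that extent.

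Klre1, a receptor that pairs with the products of Klri1 or Klri2, had 16 to 382 counts per NK cell-like cell with a median of 68. It was above 0 in 27 of 27 NK cell-like cells and in 4 of 36 Cd8a-positive T cells, in 1 of which it had 179 counts. The level was 1427 CPM in NK cell-like cells, 76.4 CPM in Cd8a-positive T cells and 17.4 CPM in other T cells. Without the Cd8a-positive T cell with the most Klre1, the level there was 30.9 CPM.

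Klrk1 encodes NKG2D, an activating receptor for stress-induced ligands that is known on NK cells and on activated Cd8 T cells. Its counts ran from 0 to 177 per NK cell-like cell with a median of 68, and 26 of 27 cells were above 0, against 5 of 36 Cd8a-positive T cells and 10 of 67 other T cells. The level was 983 CPM (939 to 1028) in NK cell-like cells, 70.7 CPM in Cd8a-positive T cells and 56.2 CPM in other T cells. Of the 10 genes Klrk1 was the one with the smallest share of its counts in NK cell-like cells, 37.9%, and 40.3% of its counts lay in 31 conventional dendritic-like cells.

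Klra8 encodes Ly49H, an activating receptor carried by a subset of NK cells in some strains. It divided the NK cell-like cells: 12 of 27 had 3 or more counts (44.4%, 25.5 to 64.7), 13 had none and 2 had a value below 1. The 12 reached up to 444 counts, and 6 of them had 100 or more. In Cd8a-positive T cells Klra8 had no count in 36 cells, and in other T cells and other leukocytes no cell reached 3. NK cell-like cells held 98.5% of all Klra8 counts, at 1052 CPM. Of its annotated 50-base words, 33.1% occur in other genes, chiefly Klra14-ps, and 36.2% of the cells with a Klra8 value held one that was not whole, so its level is uncertain likewise.

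Il2rb, the beta chain shared by the interleukin-2 and interleukin-15 receptors, had 6 to 215 counts per NK cell-like cell with a median of 77 and was above 0 in all 27. It was above 0 in 17 of 36 Cd8a-positive T cells and in 23 of 67 other T cells. The level was 1063 CPM in NK cell-like cells, 84.3 CPM (75.4 to 93.9) in Cd8a-positive T cells and 121 CPM (113 to 130) in other T cells. The ratio of Cd8a-positive to other T cells was 0.696 (0.610 to 0.793), too small a difference to be called, unlike that of the 4 effectors. By cells the order was the other way. Il2rb was at 3 or more counts in 16 of 36 Cd8a-positive (27.9 to 61.9%) and 20 of 67 other T cells (19.3 to 42.3%). Eomes, the T-box factor of NK cells and of memory Cd8 T cells, had 0 to 158 counts per NK cell-like cell with a median of 7, and 18 of 27 were above 0. It was at 250 CPM in NK cell-like cells, at 37.5 CPM in Cd8a-positive T cells, of which 3 of 36 were above 0, and at 2.66 CPM in other T cells, of which 3 of 67 were. A single NK cell-like cell held 32.2% of the Eomes counts there, and without it the level was 175 CPM.

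Within the NK cell-like cells the 10 genes did not rise and fall as 1 block. Over the 45 pairs, Pearson's r of the scaled log values over 27 cells ran from -0.42 for Prf1 with Klra8 to 0.49 for Gzma with Gzmb, with a median of 0.03. These cells share 1 library and differ in depth, and the values are a description. The 12 cells with 3 or more Klra8 counts had 518 CPM of Prf1 against 1037 CPM in the other 15, and 251 CPM of Ncr1 against 574 CPM. Ncr1 was above 0 in 6 of these 12 cells and in 14 of the other 15. In the opposite direction, the cells with Klra8 had 1995 CPM of Klre1 against 984 CPM in those without. Gzma was at 11326 CPM in cells with Klra8 and 11565 CPM in cells without, Nkg7 at 4060 and 4082 CPM, and Il2rb at 1082 and 1048 CPM. The related receptor gene Klra4 was at 758 CPM in cells with Klra8 and 320 CPM in cells without, whereas Klra3 was at 102 CPM and 377 CPM. Klra4 was above 0 in 5 of the 12 cells with Klra8 and in 5 of the other 15. Its median cell was at 0 in both groups, so few cells set its levels. Klra3 was above 0 in 3 of the 12 and 10 of the 15.

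**Figure D3:**
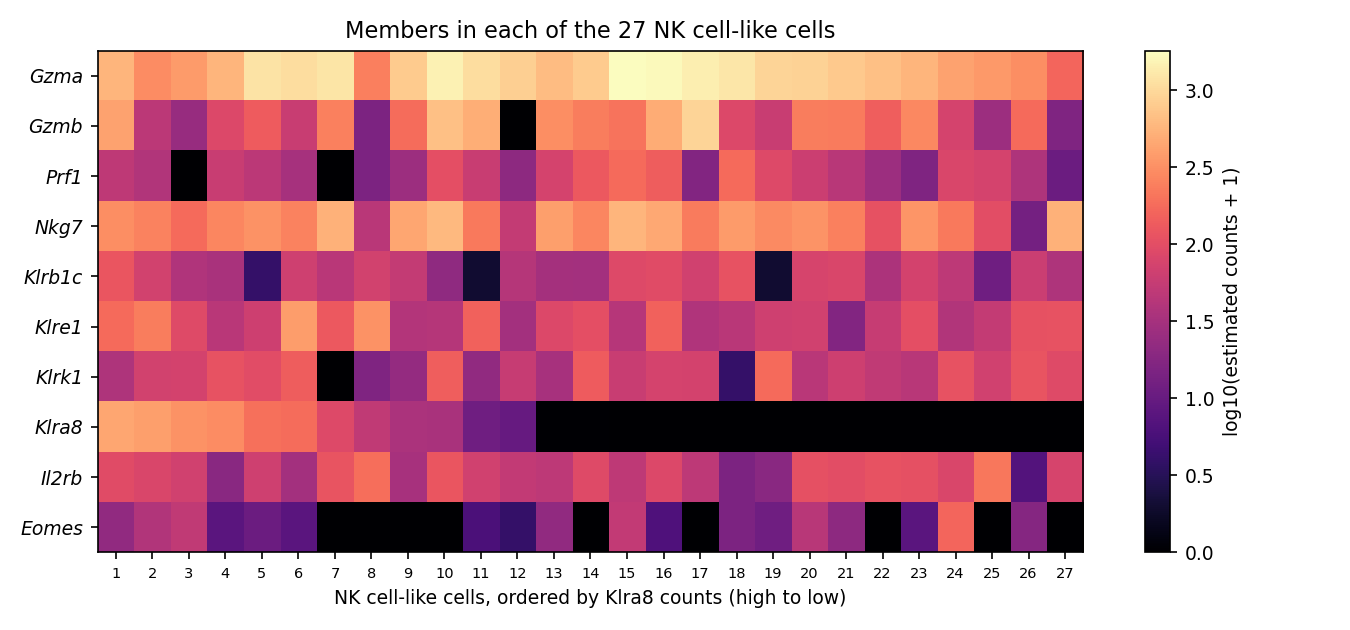
Counts of each gene in each of the 27 NK cell-like cells as log10(estimated counts + 1), with cells ordered by their Klra8 counts from high to low. Klra8 is at 3 or more counts in the 12 cells on the left, while Gzma, Nkg7, Klrb1c, Klre1 and Il2rb are above 0 in all 27.

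Splitting the same cells by Eomes gave 18 cells with 3 or more counts and 9 with none. Il2rb was lower in the cells with Eomes, at 842 CPM, than in those without, at 1487 CPM. Cd27, a surface gene of less mature NK cells, was at 16.3 CPM in cells with Eomes and 248.9 CPM in cells without, and it was above 0 in 1 of 18 and 4 of 9 cells. Prf1 was at 921 CPM in cells with Eomes and 593 CPM in cells without, and Gzma at 11878 and 10658 CPM. Gzmb went the other way, at 2646 CPM with Eomes and 3696 CPM without, as did Nkg7, at 3963 and 4281 CPM. By the median cell, Gzma was also slightly lower with Eomes, at 10345 CPM against 10521 CPM. Nkg7 was higher with Eomes by the median cell, at 3719 CPM against 3502 CPM, unlike its summed level. Gzmb stayed lower with Eomes, at 2098 CPM against 2358 CPM. Klra8 was at 1440 CPM in cells with Eomes and 307 CPM in cells without, and above 0 in 9 of 18 and 5 of 9 cells. Klra4 was at 712 CPM in cells with Eomes and 128 CPM in cells without. It was above 0 in 8 of 18 and 2 of 9 cells, with a median cell at 0 in both groups.

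Each of the 10 genes was above 0 in a minority of the T cells, Nkg7 being the one above 0 in most Cd8a-positive T cells. Compared with other leukocytes, 9 of 10 were higher in the 103 T cell-like cells (15.4% of all tested genes were), at a median of 3.52 on the log2 scale, and Klra8 was not, at 0.20. The level of Gzma was 199 CPM in T cells and 1.15 CPM in other leukocytes. That of Nkg7 was 305 CPM in T cells and 2.18 CPM in other leukocytes, and that of Il2rb 107 CPM and 0.390 CPM. When classes were drawn cell by cell from markers instead of from clusters, 5 of 10 were higher in T cells, and 7 NK cell-like cells with 6309 Gzma counts then stood among the other leukocytes. When cells named doublet were left out, 1 NK cell-like cell with 326 Klra8 counts joined the T cells, and 10 of 10 were higher, Klra8 at 4.69. The 15.4% of all tested genes belongs to the main classes, and the share under these alternatives is not reported here.

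Cd8a-positive T cells, defined by any Cd8a count, carried Cd8b1 as well in 31 of 36 cells and Cd4 in 10. Compared with the other T cells, 7 of 10 genes were higher in them (11.4% of all tested genes were), at a median of 2.24 on the log2 scale beside -0.06 over all genes. The 7 were Gzma, Gzmb, Prf1, Nkg7, Klrb1c, Klre1 and Eomes. The ratio was 11.6 (10.2 to 13.2) for Gzma, 7.33 (6.45 to 8.36) for Gzmb, 18.7 (10.4 to 36.4) for Prf1, and 2.88 (2.68 to 3.10) for Nkg7. Klrk1 at a log2 ratio of 0.33, Il2rb at -0.52 and Klra8, with no count in Cd8a-positive cells and 5 in the others, stayed within the limits. B cell markers summed to 416 CPM in Cd8a-positive T cells and 103 CPM in other T cells, and the part of this difference in the results was not tested.

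Few cells made up these levels. Gzma or Gzmb was at 3 or more counts in 9 of 36 Cd8a-positive T cells (12.1 to 42.2%) and in 5 of 67 other T cells (2.47 to 16.6%), and both were in 3 of 36, against 26 of 27 NK cell-like cells. A single Cd8a-positive T cell with 1132 Gzma, 451 Nkg7 and 179 Klre1 counts held 62.3% of the Gzma counts of its class, and without it the Gzma level was 180 CPM in place of 467 CPM and 6 of 10 genes were higher, Klre1 no longer among them at a log2 ratio of 0.80. The share of all tested genes called higher without that cell is not reported here. Likewise 1 cell of the other T cells held 226 of their 265 Gzma counts, and this cell also had 37 counts of Ncr1, all of the Ncr1 in that class. Without this cell the Gzma level of the other T cells was 5.96 CPM in place of 40.3 CPM, and without it and a Cd8a-positive T cell with 1 Ncr1 count the log2 ratio of Gzma was 6.11 in place of 3.50.

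Among the T cells without Cd8a, 36 carried Cd4. Gzmb had 1 count in these 36 cells and was at 3 or more in none of them, against 8 of 36 Cd8a-positive T cells. Gzma was at 9.58 CPM in Cd4-positive cells, while Il2rb was at 139 CPM and Nkg7 at 163 CPM. The 31 T cells with neither Cd4 nor Cd8a had 106 CPM of Gzmb from 3 cells and 202 CPM of Nkg7. Trdc was at 3 or more counts in 2 of them, and these 2 cells had 37 and 51 counts of Klrk1 and no count of Gzma, Gzmb, Prf1 or Nkg7.

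Other leukocytes gave the background. Gzma was above 0 in 86 of 727 of them (11.8%, 9.57 to 14.4), but the highest value was 3 counts, and after thinning every cell to 25000 counts 16 cells (2.20%) kept a count, against 27 of 27 NK cell-like cells and 5 of 36 Cd8a-positive T cells. The Gzma level was 1.17 CPM in neutrophil-like, 1.15 CPM in monocyte-like, 1.14 CPM in B cell-like and 1.00 CPM in dendritic-like cells, with overlapping intervals, while the unnamed cluster held 9 counts in 33 cells (1.83 to 7.59 CPM). Eomes and Klra8 reached at most 1 count in any of the 727 cells and Il2rb at most 2. No neutrophil-like cell of 273 carried any of the 10 genes at 3 counts. Prf1 had 22.75 counts in all other leukocytes, 16 of them in 1 B cell-like cell that also carried the B cell genes Cd79a and Ms4a1.

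Gzmb and Klrk1 stood above that background. The other leukocytes had 4038.5 counts of Gzmb, and 3716 of these (92.0%) came from 1 cell of the conventional dendritic-like cluster with 93344.5 counts in all. That cell had no count of Ptprc, Flt3, Cd209a, Prf1 or Gzma, and had 21 counts of Cpa3 and 4 of Ms4a2, genes of mast cells and basophils, so its cluster name does not describe it. Without it the level of Gzmb in other leukocytes was 3.66 CPM in place of 45.8 CPM. Of the 271 Gzmb counts in monocyte-like cells, 93.0% likewise lay in 1 cell. The Nkg7 counts of the dendritic-like cluster came to 94.9% from 1 cell, which had 112 counts beside 8 of Kit, 11 of Cpa3 and 18 of Itga2b.

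Klrk1 was spread over the conventional dendritic-like cells. It was above 0 in 24 of 31 of them, with up to 256 counts and a median of 39, against a median of 68 in NK cell-like cells. Their level was 228 CPM, compared with 5.88 CPM in the remaining 696 other leukocytes, a ratio of 38.9 (35.1 to 43.1), in a comparison in which 7.72% of tested genes and 4 of the 10 genes described here were higher (Gzmb, Nkg7, Klre1 and Klrk1). Klre1 was above 0 in 6 of 31 dendritic-like cells, with 63.5% of its counts in 1 of them. Thinned to 25000 counts, 22 of 31 cells kept Klrk1. Dendritic-like cells were deep, with a median of 256566 counts. They held 2046 counts of Klrk1 and 9 of Gzma, whereas NK cell-like cells held 1926 counts of Klrk1 and 22456 of Gzma. Klrd1 (CD94), the partner chain of the Klrc receptors, was above 0 in 26 of 31 dendritic-like cells at 431 CPM, against 812 CPM in NK cell-like cells, and 20 of the 31 had both Klrk1 and Klrd1 at 3 or more counts. Ncr1 had no count in them. Of the adaptors through which NKG2D signals, Tyrobp (DAP12) was at 1850 CPM in dendritic-like and 2876 CPM in NK cell-like cells, whereas Hcst (DAP10) was at 46.8 CPM and 958 CPM. Outside this cluster 12 of 696 other leukocytes had 3 or more Klrk1 counts, 9 of them monocyte-like. The cluster was named on Flt3, Cd209a and Clec10a, 3 of the 6 measured markers of its list and the fewest that give a name. Flt3 was above 0 in 24 of 31 cells and Cd209a in 16 of 31, with 31.6% of the Cd209a counts in 1 cell. Class II antigen genes were among the leading genes of the cluster, and Klrd1 was also among these.

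**Figure D4:**
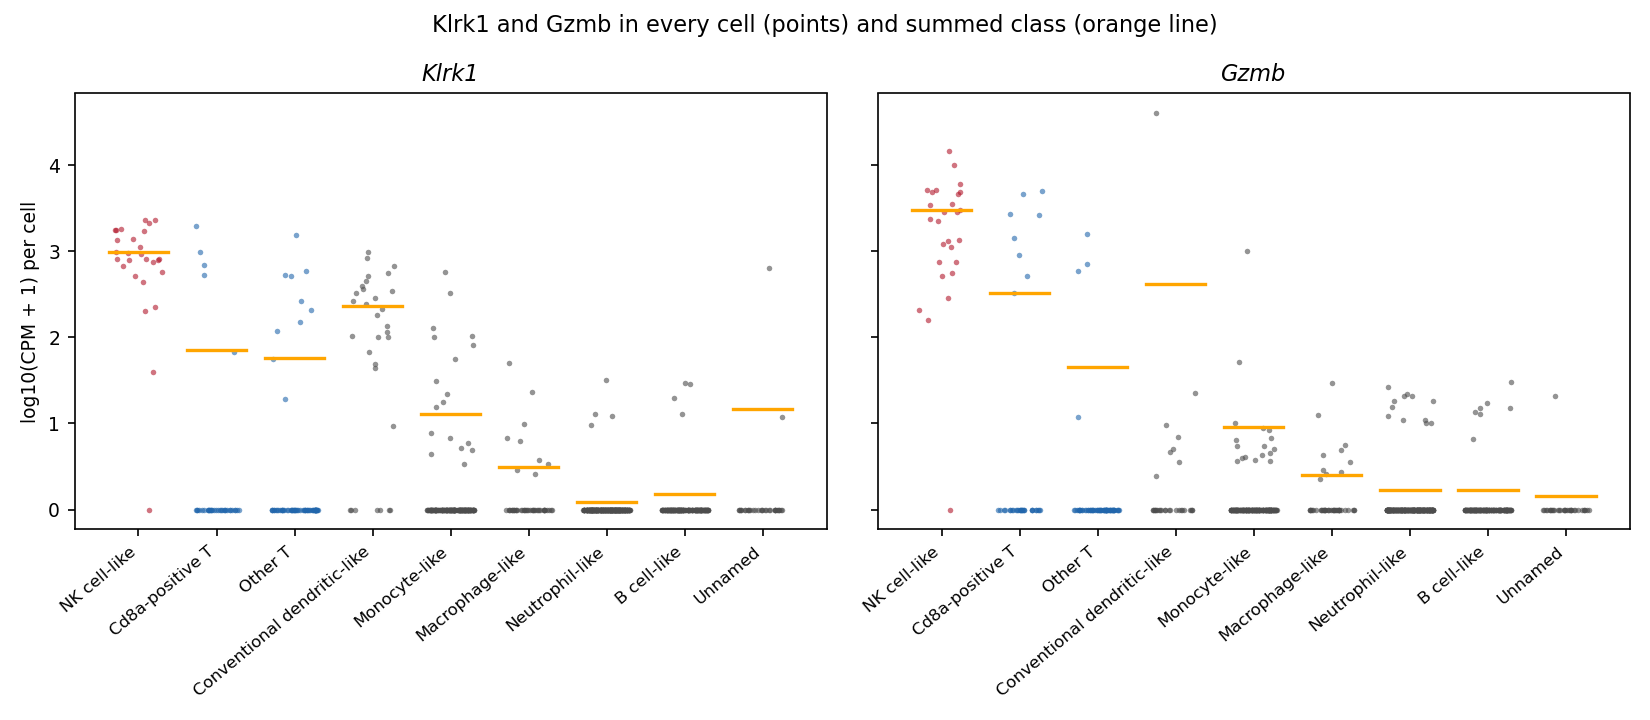
Klrk1 and Gzmb in every kept cell as log10(CPM + 1) (points), with the level of each summed class as an orange line. Klrk1 is above 0 in 24 of 31 conventional dendritic-like cells, whereas the Gzmb line of that class is set by 1 cell.

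Around these 10 genes, 81 further genes of the cytotoxic pathway were followed in 9 lists, and 77 were in the matrix. 5 of them (Ncr1, Klrd1, Klrc2, S1pr5 and Xcl1) also served to name the NK cluster. All 5 passed the naming rule, so their calls as higher in NK cell-like cells were close to fixed in advance. They are included in the counts and medians given here for all lists, which are a description. Against all other cells, 38 of the 73 with at least 50 counts were higher in NK cell-like cells and 16 were lower, where 16.1% and 28.4% of all tested genes were, and their median log2 ratio was 1.14. The other NK receptors and adaptors were higher in 15 of 20, with a median of 4.48. Among these 15 were Ncr1, Klrd1 and Klrc2, which named the cluster. Fcer1g and Tyrobp, signalling adaptors, were at 3072 and 2876 CPM in NK cell-like cells, 145 and 275 CPM in Cd8a-positive T cells and 19.5 and 35.2 CPM in other T cells, and macrophage-like and monocyte-like cells carried more of both. Klri2, the partner of Klre1, was at 517 CPM in NK cell-like cells and 0.257 CPM in Cd8a-positive T cells. Hcst was at 958 CPM in NK cell-like cells and 771 CPM in Cd8a-positive T cells, and Klrd1 at 812 and 354 CPM. Fcgr3 (CD16) was the 1 receptor called lower, at 22.0 CPM in NK cell-like cells and up to 1034 CPM in macrophage-like cells.

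Among other granule contents and their inhibitors, 4 of 8 were higher in NK cell-like cells and 3 were lower, where 16.1% and 28.4% of all tested genes were. Serpinb9, which blocks granzyme B inside the killer cell itself, was at 961 CPM in NK cell-like cells and 38.3 CPM in Cd8a-positive T cells, and the related Serpinb6b at 795 and 72.8 CPM. Ctsw, a cathepsin of cytotoxic cells, was at 592 and 138 CPM. Further granzymes ran the other way: Gzmk was at 0.765 CPM and Gzmm at 0 CPM in NK cell-like cells, and they were highest in Cd8a-positive T cells, at 12.4 and 29.3 CPM. Few cells set these levels, since Gzmk was above 0 in 4 and Gzmm in 5 of 36 Cd8a-positive T cells. In other T cells they were at 7.05 and 10.5 CPM. Srgn, the proteoglycan core of granules, was at 1953 CPM in NK cell-like cells, 2042 CPM in Cd8a-positive T cells and 10432 CPM in neutrophil-like cells, and Ctsc, the protease that activates granzymes, at 134 CPM in NK cell-like cells and 1242 CPM in macrophage-like cells. Of 6 genes of granule release, none was higher in NK cell-like cells and 3 were lower (Stx11, Lyst and Lamp1), beside the same shares of all genes. Lamp1 was at 84.1 CPM in NK cell-like cells and 746 CPM in macrophage-like cells.

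Of 6 death ligands and secreted products, 5 were higher in NK cell-like cells, where 16.1% of all tested genes were. Xcl1, among the 5, also named the cluster. The chemokine Ccl5 was at 23042 CPM in NK cell-like cells, 5352 CPM in Cd8a-positive T cells and 2240 CPM in other T cells. Xcl1 was at 662 CPM, 30.9 CPM and 15.4 CPM in the same order, but few cells set these levels. It was above 0 in 10 of 27 NK cell-like, 4 of 36 Cd8a-positive T and 2 of 67 other T cells. The highest cell held 497 of 1297, 74 of 120 and 100 of 101 counts in these classes. Ccl4 reached 1078 CPM in NK cell-like cells and 1076 CPM in macrophage-like cells. Tnfsf10 had no count in NK cell-like cells and was at 18.4 CPM in Cd8a-positive T cells, of which 4 of 36 were above 0.

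Transcription factors were higher in 5 of 9 and lower in 2. Of all tested genes 16.1% were higher and 28.4% lower, so the numbers of lower genes in this paragraph do not stand above that share. Tbx21 was at 289 CPM in NK cell-like cells, 40.6 CPM in Cd8a-positive T cells and 31.7 CPM in other T cells, and Id2, which restrains the T and B cell fates, at 1569, 111 and 442 CPM. Nfil3, needed for NK development, was at 194, 47.7 and 52.4 CPM. Tcf7 ran the other way, at 14.3 CPM in NK cell-like cells, 354 CPM in Cd8a-positive T cells and 291 CPM in other T cells, and Lef1 was at 108, 285 and 228 CPM. Zeb2, Runx3, Nfil3 and Prdm1 were highest in the unnamed cluster. Of the other cytokine receptors 4 of 8 were higher and 2 were lower: Il18rap was at 282 CPM in NK cell-like cells and 17.6 CPM in Cd8a-positive T cells, Il12rb2 at 208 and 19.8 CPM, and Il7r at 3.57 and 449 CPM. Il2rg, the chain that pairs with Il2rb, was at 50.0 CPM in NK cell-like cells, 45.4 CPM in Cd8a-positive T cells and 48.1 CPM in other T cells. NK maturation genes were higher in 3 of 8 (Cd27, Itga2 and S1pr5) and lower in none, and S1pr5 also named the cluster. Cd69 was at 155 CPM in NK cell-like and 81.8 CPM in Cd8a-positive T cells, and Cx3cr1 at 135 and 30.5 CPM. Neither was called higher against all other cells. Cd69 was at 293 CPM in B cell-like and 272 CPM in other T cells. Cx3cr1 was at 230 CPM in the unnamed cluster and 168 CPM in macrophage-like cells. Cd27 was not particular to NK cell-like cells, at 95.9 CPM there, 96.2 CPM in Cd8a-positive T cells and 128 CPM in other T cells. It was above 0 in 5 of 27 NK cell-like cells.

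The signals that act on these receptors were sought in all classes. All 4 cytokines with at least 50 counts were lower in NK cell-like cells than in all other cells, where 28.4% of all tested genes were lower and 16.1% higher. Il15 was highest in the unnamed cluster, at 177 CPM, and in neutrophil-like cells, at 135 CPM, and Il18 in conventional dendritic-like cells, at 50.9 CPM. Of 4 NKG2D ligands with that many counts, Raet1e and Ulbp1 were higher in NK cell-like cells, at 62.1 and 9.19 CPM, and Raet1e was at 33.1 CPM in neutrophil-like cells. The Ulbp1 level came from 1 of 27 NK cell-like cells and was 8.61 CPM in Cd8a-positive and 11.3 CPM in other T cells. Between T cell classes, 19 of 73 pathway genes were higher and 17 lower in Cd8a-positive T cells than in other T cells, where 11.4% and 16.9% of all tested genes were.

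**Figure D5:**
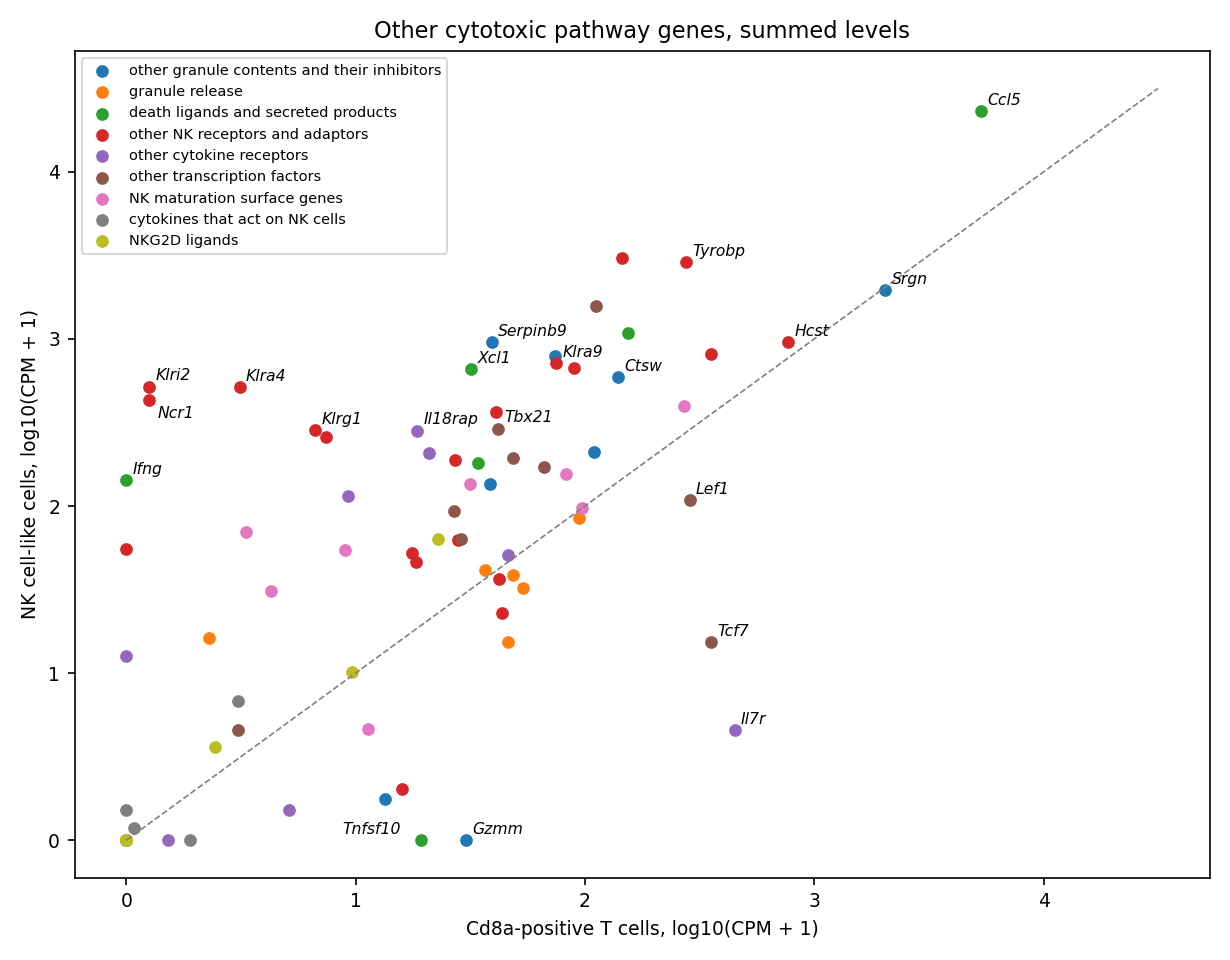
Levels of the 77 pathway genes in NK cell-like cells (vertical) and Cd8a-positive T cells (horizontal), both as log10(CPM + 1), coloured by list, with equality as a dashed line. Ccl5 lies at the upper right in both classes, Klri2 and Ncr1 are high in NK cell-like cells and at 0.257 CPM in Cd8a-positive T cells, and Il7r and Tcf7 lie below the line.

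The genes with a profile most like that of the 10 were sought among 26103 genes by Pearson's r with their mean scaled log value over 857 cells. They were Ccl5 at 0.85, Serpinb9 at 0.84, Serpinb6b at 0.76, AW112010 at 0.76, Klrc1 at 0.73, Ncr1 at 0.72, Ctsw at 0.71, Klra9 at 0.71, Klri2 at 0.69 and Tbx21 at 0.69. 9 of the 10 stood on the lists already described, and AW112010, at 6253 CPM in NK cell-like cells, 372 CPM in Cd8a-positive T cells and 82.6 CPM in other leukocytes, did not. Over the 130 NK cell-like and T cells alone, 4 of these 10 were again among the 10 highest, and Fcer1g at 0.92, Irf8 at 0.92 and Tyrobp at 0.88 led. All cells share 1 library and differ in depth, and the values are a description.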

How the data were processed

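The pooled cells went through BD Rhapsody capture and TAS-Seq amplification as 1 library, per the labels' protocols. The submitters' processing notes name GRCm39, R 4.3.1, STAR, STARsolo 2.7.10b and cutadapt 4.1. The authors deposited estimated counts for each gene in each cell without normalization, and 69.8% of the values above 0 are whole. No source used here says whether molecules or reads were counted, and intervals are too narrow if reads were. The hashtag file was not used.

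Kept cells had 500 or more counts, 200 or more genes and no more than 25% mitochondrial counts, which left out 21 of 878. Cells named doublet stayed in and no doublet caller was run. Counts were scaled to 10000 per cell and log-transformed, and 2000 variable genes, 30 principal components, 15 neighbours and Leiden clustering at resolution 1 (scanpy 1.11.5) gave 10 clusters. The described genes and pathway genes that are not markers were left out of the variable genes. A cluster took the name of the list with the most markers passing, from 3 upward. The genes and lists were chosen with earlier results of these data known. Genes named beyond the 10 were, per list, those highest in NK cell-like and Cd8a-positive T cells, those higher in another class, and the 10 most alike; Klra3, Klra4, Gzmk, Gzmm, Tnfsf10, the splits of NK cell-like cells and single cells were picked after their values were seen, and 1 gene that the rule names is not reported here. Sums were scaled to CPM. Their intervals are exact Poisson ones, and those of shares and ratios are Clopper-Pearson ones. The ratio calculation was tested on simulated data. Alternatives were other cell filters, cluster settings, a gate per cell, equal weight per cell, other constants and count minimums, thinning, and leaving out single cells.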

Additional observations from a re-analysis of the deposited data

How the results depend on the processing

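The count of 10 genes higher in NK cell-like cells, and the NK cell-like class as the highest of all for each of the 10, held under every alternative run, with 25 to 31 NK cell-like cells. Many of these runs could change little. The mitochondrial limit, resolutions, seed and choice of variable genes gave the same levels in NK cell-like cells as the main run. The gate per cell used the markers that named the cluster. The sizes moved with a gate per cell, whose 31 NK cell-like cells were 20 of the 27 and 11 other leukocytes with 4 Gzma counts in all: Gzma was at 3491 CPM in place of 11460 CPM there, with a log2 ratio of 5.29 in place of 8.95, and Klra8 at 378 CPM in place of 1052 CPM. The count in T cells over other leukocytes was 9 and ran from 5 to 10: it was 5 with a gate per cell, which left 7 NK cell-like cells among the other leukocytes, and 10 without cells named doublet, when the log2 ratio of Klra8 in NK cell-like cells over all others was 7.56 in place of 9.65 and that in Cd8a-positive over other T cells -5.68 in place of -0.82. The count in Cd8a-positive over other T cells was 7 and ran from 6 to 8, with 8 when Cd8b1 also defined the class, where Klrk1 reached a log2 ratio of 1.07; with the gate per cell Klrk1 was at -0.91. Among the genes most like the 10, 4 remained when only NK cell-like and T cells were used. With 10 CPM added, the share of all genes called higher fell to 9.76%, 5.50% and 3.78% in these comparisons, and 10, 7 and 7 of the 10 genes were called. Shares of all genes under the other alternatives are not reported here, so their counts have no background beside them. Leaving out the Cd8a-positive T cell with the most Gzma and the 2 T cells with Ncr1, and setting a Trac limit for NK cell-like cells, were chosen after seeing the data. No paired analysis was possible because there was 1 library. The number of cells limits the shares: Klra8 at 0 in 36 Cd8a-positive T cells allows a share of cells with a count of up to 9.74%.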
